A study of Homo sapiens with 12 samples.

Results

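The genes described here make or read prostaglandins and leukotrienes: PTGS1, PTGS2, PTGES, PTGER2, PTGER4, HPGD, ALOX5, ALOX5AP, LTA4H and LTC4S. They were taken by gene symbol, with the transcript rows of each symbol summed, and are 10 of the 46639 symbols in the table. All 10 had rows, but ALOX5 and HPGD were listed at 0 in all 12 libraries, so values are given for 8 genes. RNA came from MOLM-13, a human AML (acute myeloid leukemia) line with an MLL-AF9 fusion. Each of 4 groups has 3 libraries: untreated, 100 nM decitabine (DAC, an inhibitor of DNA methyltransferases), 1 µM all-trans retinoic acid (ATRA, a ligand of retinoic acid receptors), and DAC+ATRA at the same doses. All groups were grown with GM-CSF per the labels, and no vehicle control library was analyzed here. The triplicates are technical, so every test below measures the spread within 1 experiment of 1 cell line. The labels give 96 h for untreated and 72 h for treated libraries, whereas the design and the methods give a harvest at 72 h for all. If the labels hold, culture time and drug cannot be told apart in comparisons with untreated, while the treated groups share 1 time. The labels give 3 days of treatment for every treated library, whereas per the methods ATRA joined only at the third DAC dose.

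Prostaglandins and leukotrienes are lipid signals made from arachidonic acid that phospholipases free from membranes. The cyclooxygenases, encoded by PTGS1 and PTGS2, turn arachidonic acid into PGH2, and terminal synthases such as that of PTGES turn PGH2 into PGE2, which signals through receptors including EP2 and EP4 (PTGER2 and PTGER4) and is inactivated by the HPGD dehydrogenase. 5-lipoxygenase (ALOX5), helped by its membrane partner FLAP (ALOX5AP), makes LTA4, from which LTA4H forms LTB4 and LTC4S forms LTC4. Monocytes, macrophages, neutrophils, eosinophils and mast cells are the well-known producers of these lipids.

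Promoter sequences are shown for PTGES, PTGS2 and LTC4S, the members with the largest log2 differences between group means. Each is the 250 bases ahead of the RefSeq start on GRCh38.p14, 5′ to 3′ on the strand of the gene. Capitals mark a GC box (GGGCGG) in PTGES and LTC4S and a TATA box (TATAAA) in PTGS2.
PTGES: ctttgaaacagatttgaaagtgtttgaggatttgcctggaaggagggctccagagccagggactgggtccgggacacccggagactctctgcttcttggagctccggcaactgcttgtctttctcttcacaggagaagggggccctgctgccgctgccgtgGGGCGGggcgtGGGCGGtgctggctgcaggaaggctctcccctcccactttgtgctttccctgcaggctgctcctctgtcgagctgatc
PTGS2: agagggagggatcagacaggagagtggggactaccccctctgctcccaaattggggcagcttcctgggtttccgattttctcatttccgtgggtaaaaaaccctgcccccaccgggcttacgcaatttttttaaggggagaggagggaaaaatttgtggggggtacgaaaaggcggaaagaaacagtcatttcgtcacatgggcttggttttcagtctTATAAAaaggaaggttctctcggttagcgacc
LTC4S: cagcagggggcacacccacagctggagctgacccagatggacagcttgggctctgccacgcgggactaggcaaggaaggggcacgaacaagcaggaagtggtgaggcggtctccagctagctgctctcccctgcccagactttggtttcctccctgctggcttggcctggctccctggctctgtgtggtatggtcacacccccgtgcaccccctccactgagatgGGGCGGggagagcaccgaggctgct
The PTGES sequence lies at chr9:129753043-129753292 on the minus strand, the PTGS2 sequence at chr1:186680424-186680673 on the minus strand and the LTC4S sequence at chr5:179793736-179793985 on the plus strand. Both strands were searched for the 2 motifs and for the retinoic acid receptor half-site AGGTCA, which none of the 3 windows holds. In PTGES the GC boxes span bases -89 to -84 and -78 to -73 from the start, in LTC4S bases -25 to -20, and in PTGS2 the TATA box spans bases -32 to -27. Among 35114 promoter windows of the same length, 42.6% hold a GC box, 10.7% TATAAA and 12.1% AGGTCA. The PTGES and PTGS2 windows hold 9 CpG dinucleotides each and the LTC4S window 7, against a median of 11 over all windows. These matches describe letters only, as methylation and binding were not measured here.

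Levels are normalized read counts, that is, reads divided by a size factor per library. They may be compared between libraries as far as transcript use did not change, but not between genes. The reason is that reads shared by several listed transcripts of a gene appear to be missing. PTGS2, PTGES and PTGER4 have 1 listed transcript each. LTC4S, LTA4H and ALOX5AP have several, with 281, 347 and 373 bases free of other listed transcripts on the same strand. Transcript use is given below for PTGS1 alone. Recovered reads ranged from 8.95 to 11.9 M per untreated library (M, mega), 4.67 to 6.95 M with DAC, 8.36 to 10.7 M with ATRA and 5.61 to 7.16 M with DAC+ATRA, so values in the DAC-containing groups rest on fewer reads. DAC replicate 3 stood apart from the other DAC libraries on the third principal component (5.47% of the variance). The retinoid targets RARB and CYP26A1 were at 0 in the untreated group and had means of 157 ± 29.9 and 1331 ± 435 with ATRA and 101 ± 5.99 and 384 ± 7.93 with DAC+ATRA (SD, n = 3). Of 9 myeloid markers, 8 had reads in every group, and LYZ and MPO differed widely between groups, as given beside LTC4S. CD68 was listed at 0, and its 2 listed transcripts have no base that is free of other listed transcripts on the same strand.

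PTGES, PTGS1 and PTGS2, the genes that lead from arachidonic acid to PGE2, were higher with ATRA than without treatment, whereas LTC4S was lower. In DAC+ATRA, PTGES lay higher still, PTGS1 remained above untreated, and PTGS2 and LTC4S overlapped their untreated ranges. DAC alone lowered ALOX5AP. The test was limma on log2(normalized count + 1) of 10642 protein-coding genes, and genes with a Benjamini-Hochberg adjusted p below 0.01 are called changed. With ATRA, 4 of the 8 members were called against untreated, where 26.0% of all tested genes were called. Of these, 3 were higher (12.1% of all tested genes) and 1 was lower (14.0%). With DAC+ATRA, 3 of 8 were called against untreated (28.9% of all tested genes), 2 higher (14.5%) and 1 lower (14.4%). With DAC, 2 of 8 were called against untreated (7.97%), 1 higher (4.29%) and 1 lower (3.67%). Between DAC+ATRA and DAC, 4 of 8 were called (18.8%), 3 higher (9.04%) and 1 lower (9.74%). Between DAC+ATRA and ATRA, 4 of 8 were called (11.9%), 2 higher (6.47%) and 2 lower (5.46%). PTGES is in each of these counts although it could only enter the test through its ATRA-containing libraries, so the counts describe the list and support nothing about it. The members' median log2 difference was 0.07 with ATRA and -0.20 with DAC+ATRA against untreated, beside -0.04 and -0.00 over all tested genes. Several comparisons share libraries and are not independent.

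**Figure D1:**
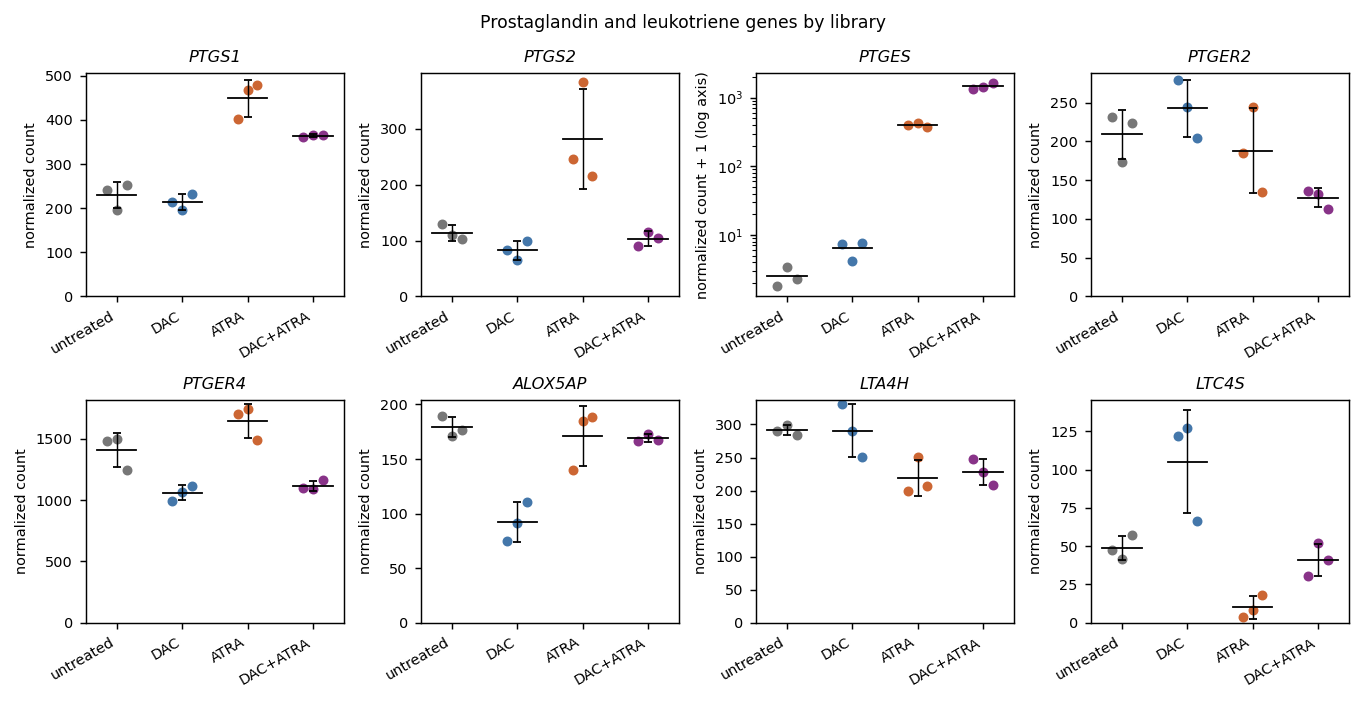
Normalized counts of the 8 genes with reads (y axis) in each library of the 4 groups (x axis); points are libraries, long lines group means and bars SD (n = 3), and PTGES is drawn as count + 1 on a log axis without SD. PTGES separated all 4 groups in normalized counts, but untreated and DAC libraries held only 1 to 3 and 2 to 6 reads. PTGS2 was high only in the 3 ATRA libraries (217 to 384), and LTC4S was lowest there (3.58 to 18.4).

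The cyclooxygenase genes differed from each other in the combination. PTGS1, the constitutive form in most tissues (chromosome 9, bases 122370530 to 122395703, plus strand), had counts of 240, 196 and 252 in untreated libraries, 215, 196 and 232 with DAC, 401, 468 and 478 with ATRA, and 361, 366 and 367 with DAC+ATRA. Both ATRA-containing groups lay above both others without overlap, and the DAC+ATRA libraries lay just below the ATRA libraries. In limma the log2 fold change of ATRA against untreated was 0.97 ± 0.13 (SE), with an adjusted p of 8.97e-06. For DAC+ATRA it was 0.68 ± 0.13, with a limma adjusted p of 0.00044. DAC+ATRA against ATRA gave -0.30 ± 0.13, which did not pass (limma adjusted p = 0.125). One transcript, ENST00000362012, held 89.4% to 92.2% of the PTGS1 counts in every group, so its use was much the same across groups.

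PTGS2, the inducible cyclooxygenase (chromosome 1, bases 186671791 to 186680922, minus strand), had counts of 131, 110 and 103 untreated, 82.7, 65.9 and 99.1 with DAC, 246, 384 and 217 with ATRA, and 89.6, 116 and 105 with DAC+ATRA. Only the ATRA group stood clear of the rest, and the DAC+ATRA libraries overlapped the untreated and DAC ranges. PTGS2 rose by 1.26 ± 0.21 on the log2 scale with ATRA (limma adjusted p = 9.51e-05) and the log2 difference of the combination from ATRA was -1.40 ± 0.21 (limma adjusted p = 9.08e-05). Against untreated, DAC+ATRA differed by -0.14 ± 0.21 (limma adjusted p = 0.626). The DAC effect with ATRA minus that without it (the interaction) was -0.92 ± 0.30 and did not pass (limma adjusted p = 0.107). The antisense gene PACERR overlaps PTGS2, and whether counting used strand is not given in the sources used here.

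PTGES, the inducible microsomal PGE2 synthase (chromosome 9, bases 129738331 to 129753042, minus strand), is known from earlier work on these data as one of the largest rises, so its values are given without a test. Its counts were 0.78, 2.44 and 1.25 in the untreated libraries, from 1, 3 and 2 reads, and 6.36, 3.14 and 6.53 with DAC, from 5, 2 and 6 reads. They were 399, 428 and 372 with ATRA and 1355, 1421 and 1612 with DAC+ATRA. No group overlapped another in normalized counts, and the group means were ordered untreated, DAC, ATRA and DAC+ATRA from low to high. In reads before scaling, the untreated and DAC libraries overlapped (1 to 3 against 2 to 6). Because the untreated libraries held 6 reads in all, ratios were taken from pooled reads with exact 95% intervals that cover counting error only. ATRA lay 275-fold above untreated (126 to 749) and DAC+ATRA 1011-fold (464 to 2756), so the size of either ratio is loosely bounded. DAC lay 3.80-fold above untreated (1.35 to 12.2), from 13 reads against 6, and this interval leaves out the spread between libraries and is not a test. DAC+ATRA over ATRA, where both groups were well counted, was 3.68-fold (3.47 to 3.91). On the log2(count + 1) scale the ATRA and DAC+ATRA differences from untreated were 7.38 and 9.25, which understate a gene this low in the controls.

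The genes whose log2 levels followed PTGES most closely over the 12 libraries, out of 10641 compared, were PLEK (Pearson r = 0.993), PRKCB (r = 0.992), UBASH3B (r = 0.992), PDLIM5 (r = 0.990) and TMEM11 (r = 0.988). These correlations are descriptions over 4 groups of 3 libraries. PLEK, which encodes the platelet and leukocyte protein pleckstrin, had means of 4877 ± 392 untreated, 5684 ± 641 with DAC, 19139 ± 1629 with ATRA and 32013 ± 1420 with DAC+ATRA. It shares the order of the PTGES groups over a far narrower range.

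Each of the PGE2 receptor genes was lower in the combination in part of the comparisons, by less than 1 log2 unit. PTGER4, encoding the Gs-coupled receptor EP4 (chromosome 5, bases 40679915 to 40693735, plus strand), had counts of 1481, 1498 and 1246 untreated, 996, 1068 and 1117 with DAC, 1704, 1741 and 1489 with ATRA, and 1099, 1091 and 1163 with DAC+ATRA. Both DAC-containing groups lay below both others without overlap. Its log2 difference of DAC+ATRA from ATRA was -0.55 ± 0.11 (limma adjusted p = 0.000845). The differences from untreated, -0.41 ± 0.11 for DAC (limma adjusted p = 0.013) and -0.33 ± 0.11 for DAC+ATRA (limma adjusted p = 0.0179), fell just short of the threshold and passed it in 5 and 4 of the 24 other fits. Among these were the fits without untreated replicate 3 and without DAC replicate 3, the latter giving -0.44 for DAC (limma adjusted p = 0.0049) and -0.33 for the combination (limma adjusted p = 0.00799).

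PTGER2, encoding EP2, which also couples to Gs (chromosome 14, bases 52314305 to 52328598, plus strand), had counts of 231, 173 and 223 untreated, 279, 245 and 205 with DAC, 185, 245 and 135 with ATRA, and 136, 133 and 113 with DAC+ATRA. The DAC+ATRA libraries lay below the untreated and DAC libraries and overlapped only the lowest ATRA library. PTGER2 fell by 0.92 on the log2 scale in DAC+ATRA against DAC (SE 0.20, limma adjusted p = 0.00136) and by 0.70 against untreated (SE 0.20, limma adjusted p = 0.00722). The latter call was lost in 6 of 24 other fits, with adjusted p up to 0.0388, among them the fits without untreated replicate 1 or 3 and without any single DAC+ATRA library. The former was lost without DAC+ATRA replicate 3 (limma adjusted p = 0.0109). HPGD, the PGE2-inactivating dehydrogenase, was listed at 0 in every library over 7 transcript rows. These rows hold 1610 bases that are free of other listed transcripts on the same strand.

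**Figure D2:**
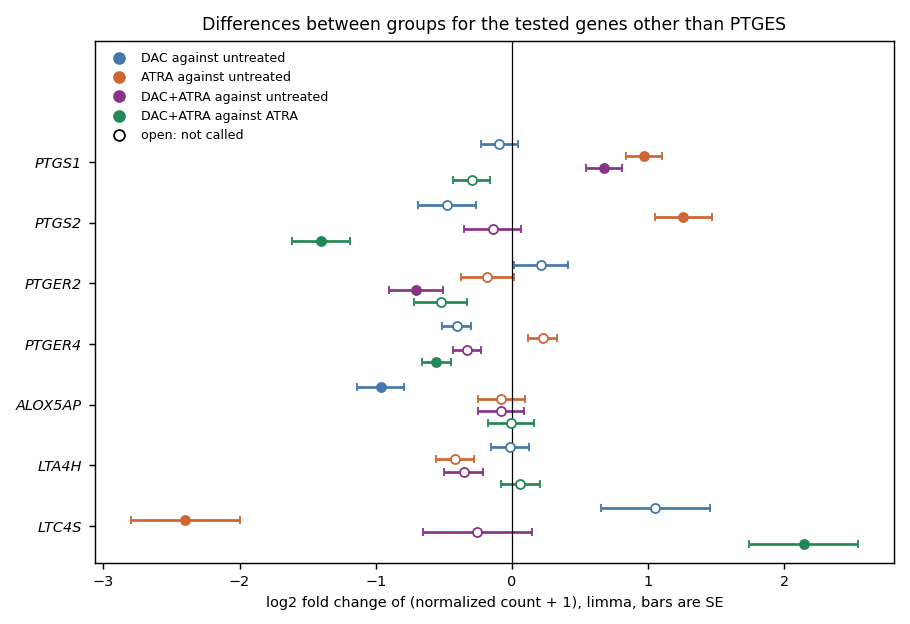
Log2 fold changes with SE from limma (x axis) for 7 of the tested genes (y axis) in 4 comparisons marked by color; filled points were called at an adjusted p under 0.01. PTGS2 and LTC4S moved with ATRA (1.26 and -2.40) and in the opposite direction between DAC+ATRA and ATRA (-1.40 and 2.14).

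On the leukotriene side, ALOX5AP and LTC4S changed with single drugs, and LTA4H differed little. ALOX5AP, which encodes FLAP (chromosome 13, bases 30713478 to 30764426, plus strand), had counts of 189, 171 and 177 untreated, 75.1, 91.0 and 111 with DAC, 140, 185 and 189 with ATRA, and 167, 173 and 167 with DAC+ATRA. The DAC group lay below the other 3 groups, which overlapped. ALOX5AP fell by 0.96 on the log2 scale with DAC (SE 0.17, limma adjusted p = 0.000586) and was higher in DAC+ATRA than in DAC by 0.88 ± 0.17 (limma adjusted p = 0.000544). Without DAC replicate 3, the DAC value was -1.11 (limma adjusted p = 6.59e-05). DAC+ATRA differed from ATRA by -0.00 ± 0.17 (limma adjusted p = 0.99). The interaction was 0.96 ± 0.24 and did not pass (limma adjusted p = 0.0287), but it did in DESeq2 and without DAC replicate 3 (adjusted p = 0.00472). A fit of the DAC and untreated libraries alone ended the call for DAC (limma adjusted p = 0.0147).

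LTA4H, the LTA4 hydrolase (chromosome 12, bases 96000753 to 96043520, minus strand), had counts of 291, 300 and 284 untreated, 331, 290 and 250 with DAC, 199, 251 and 207 with ATRA, and 248, 229 and 208 with DAC+ATRA. The ATRA-containing libraries lay below the untreated ones, and the highest ATRA library (251) was level with the lowest DAC library (250.4). The log2 differences from untreated were -0.42 ± 0.14 with ATRA and -0.36 ± 0.14 in the combination. Neither passed (limma adjusted p = 0.0258 and 0.0524), and LTA4H was the only tested member called in no comparison.

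LTC4S, the LTC4 synthase (chromosome 5, bases 179793980 to 179796647, plus strand), showed opposite shifts with the single drugs. Its counts were 47.4, 41.4 and 57.1 untreated, 122, 127 and 66.4 with DAC, 3.58, 8.19 and 18.4 with ATRA (from 4, 11 and 22 reads), and 30.8, 51.8 and 40.8 with DAC+ATRA. The ATRA libraries lay below all others, the DAC libraries above all others, and the DAC+ATRA range overlapped the untreated range. LTC4S changed by -2.40 ± 0.40 on the log2 scale with ATRA (limma adjusted p = 8.87e-05) and by 2.14 ± 0.40 between ATRA and DAC+ATRA (limma adjusted p = 0.000719). With DAC the difference from untreated was 1.05 ± 0.40 and did not pass (limma adjusted p = 0.0844). DAC replicate 3 was the lowest DAC library, and without it this value was 1.35 (limma adjusted p = 0.0213). DAC+ATRA against DAC gave -1.31 ± 0.40 (limma adjusted p = 0.0189), and -1.61 without that library (limma adjusted p = 0.00528). The last comparison also passed without ATRA replicate 1 or 3, and in 7 of 24 other fits in all.

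LTC4S is expressed by eosinophils and mast cells, and part of their marker list moved in the same direction with each single drug. The summed counts of the 6 listed markers ranged from 713 to 1043 untreated, 3774 to 4734 with DAC, 90.0 to 123 with ATRA and 1127 to 1264 with DAC+ATRA. These sums rest on the eosinophil genes CLC and EPX, and the mast cell genes did not follow as a group. CPA3 was at 0 throughout, MS4A2 had 1 read in each of 2 untreated libraries and none elsewhere, and TPSAB1 had 13, 1 and 6 reads untreated against 0, 5 and 0 with DAC and 0 with ATRA. HDC, the histidine decarboxylase gene, had 3, 3 and 1 reads untreated, 15, 11 and 9 with DAC, 0 with ATRA and 1 in all with DAC+ATRA. CLC, which encodes the Charcot-Leyden crystal protein, had means of 126 ± 27.0, 2396 ± 295, 22.0 ± 7.52 and 907 ± 65.8 in the same order of groups (SD, n = 3). EPX, the eosinophil peroxidase gene, had means of 734 ± 165, 1982 ± 304, 87.1 ± 20.7 and 294 ± 26.2. With DAC+ATRA, CLC lay 7.19-fold above untreated and EPX 2.49-fold below it, both without overlap, whereas LTC4S overlapped untreated. Of the listed myeloid markers, the granule genes LYZ and MPO were likewise highest with DAC and lowest with ATRA. Others did not follow them. ITGAM had means of 9.58 untreated, 26.8 with DAC, 57.3 with ATRA and 46.1 with DAC+ATRA. Those of CD33 were 372, 436, 549 and 679, while CEBPA and FLT3 were highest untreated (15377 and 14027). LYZ, the lysozyme gene, had means of 41628 ± 6449 untreated, 153287 ± 27169 with DAC, 6819 ± 2250 with ATRA and 40819 ± 2365 with DAC+ATRA, the order of LTC4S. MPO, the myeloperoxidase gene, had means of 1513 ± 1.91, 22033 ± 5415, 805 ± 241 and 10424 ± 1061, so levels highest with DAC and lowest with ATRA were also seen outside the eosinophil markers. The part of such shifts in the LTC4S values was not tested, and in bulk RNA fewer cells with a transcript and less of it per cell cannot be told apart. ALOX5, the 5-lipoxygenase gene, was listed at 0 over 6 transcript rows, 2 of them in the annotation used here. These 2 hold 213 bases that are free of other listed transcripts on the same strand. A 0 in this table may be a counting failure, as may hold for CD68, which has no such base, and is not read as absence of expression. This was not tested for any gene.

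**Figure D3:**
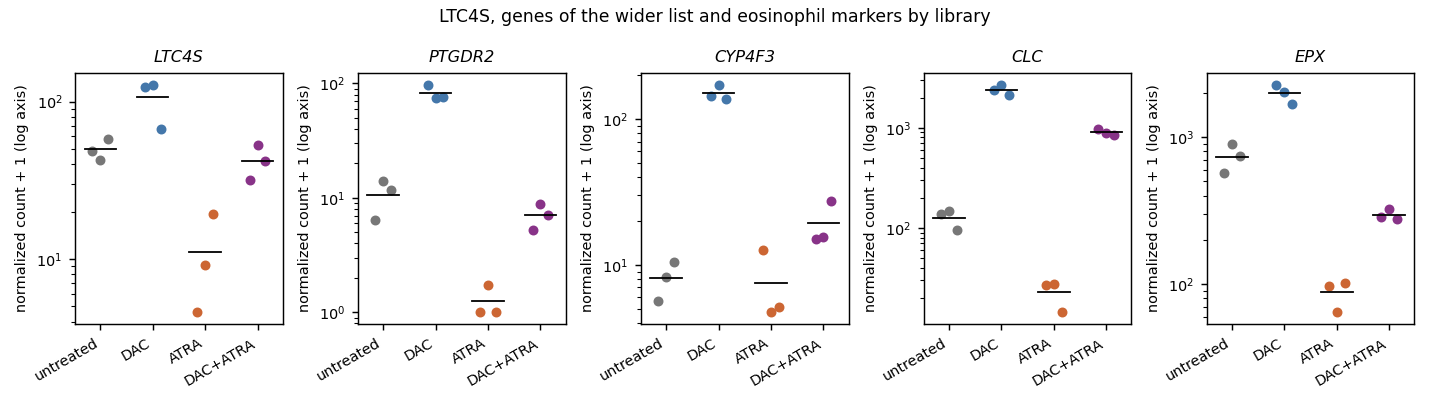
Normalized count + 1 on a log axis (y) by library in the 4 groups (x) for LTC4S, PTGDR2 and CYP4F3 and the eosinophil markers CLC and EPX; points are libraries and lines group means. All 5 genes were highest with DAC, and LTC4S, PTGDR2, CLC and EPX were lowest with ATRA (CLC mean 2396 against 22.0).

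No member passed the interaction test in limma, in which 1.60% of all tested genes were called. Of the 8 members, 3 had an unadjusted p under 0.05, and DESeq2 called 1 and edgeR 0. On this scale the interaction is 0 where the combined change equals the sum of the changes with either drug. The groups of a comparison did not overlap for 5 of 8 members in DAC, ATRA and DAC+ATRA against untreated, where this held for 30.4%, 50.7% and 55.8% of all tested genes. It held for 6 of 8 between DAC+ATRA and DAC (39.6% of all tested genes) and for 5 of 8 between DAC+ATRA and ATRA (39.9%).

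Around these genes, a wider list of 58 eicosanoid genes was examined, of which 38 were tested and 24 called in at least 1 comparison. The share of all tested genes called in at least 1 comparison was not computed, so the 24 supports nothing about the list. Against untreated, 7 of 38 were called with DAC (7.97% of all tested genes), 6 higher (4.29%) and 1 lower (3.67%). With ATRA 17 were called (26.0%), 10 higher (12.1%) and 7 lower (14.0%), and with DAC+ATRA 15 (28.9%), 12 higher (14.5%) and 3 lower (14.4%). The counts by role below are read against these same shares. CYP4F2, CYP4F3, CYSLTR2, PTGDR2 and PTGDS entered the test only with the help of libraries from the groups in which they are high, so their differences are given without a test although they are in the counts. The list's median log2 difference was 0.24, 0.11 and 0.20 in that order, beside medians within 0.04 of 0 over all tested genes. Genes sharing reads with a close copy or an overlapping gene are uncertain, which applies to ALOX12 with ALOX12-AS1, FADS1 with FADS2, LTB4R with LTB4R2, and CYP4F2 with CYP4F3.

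Among genes that release or recycle arachidonate, 10 of 17 were tested, and 1 rose and 2 fell with ATRA and with DAC+ATRA (12.1% and 14.0% of all tested genes, then 14.5% and 14.4%). The gene that rose was not the same in both. ELOVL5 rose with ATRA, but its mean with DAC+ATRA (106) was below untreated (138). The fatty acid desaturase gene FADS1, needed to form arachidonic acid from dietary precursors, had means of 2065 ± 15.5 untreated, 1689 ± 92.5 with DAC, 280 ± 59.5 with ATRA and 148 ± 26.6 with DAC+ATRA (SD, n = 3). The log2 differences of FADS1 from untreated were -2.90 with ATRA and -3.81 with DAC+ATRA (limma adjusted p = 1.21e-11 and 2.62e-13). Those of FADS2 were -1.32 and -1.82 (limma adjusted p = 0.00747 and 0.00051), and the first was lost in 6 of the 24 other fits, among them those without untreated replicate 1 or 3 and without ATRA replicate 2 or 3 (adjusted p up to 0.0518). The elongase gene ELOVL5 rose with ATRA by 1.20 ± 0.18 (limma adjusted p = 2.43e-05) and differed by -1.60 ± 0.18 between the combination and ATRA (limma adjusted p = 2.96e-06). PLA2G4A, the cytosolic phospholipase that frees arachidonate, had means of 929 ± 109, 723 ± 137, 1231 ± 38.3 and 793 ± 40.1 in the order above. It was called only between DAC+ATRA and ATRA (-0.63, limma adjusted p = 0.00121), the same direction as PTGS2. LPCAT3, which puts arachidonate back into membrane lipids, rose by 0.62 with DAC (limma adjusted p = 0.000555; 0.0134 in a fit of DAC and untreated alone).

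Of the 8 other prostanoid synthases, 7 were tested, and 3 were called higher with DAC+ATRA (14.5% of all tested genes) and none was called lower in a comparison with untreated. PTGIS, a prostacyclin synthase gene, was not called but lay lower without overlap with DAC (mean 4.62) and ATRA (3.89) than untreated (11.6). PTGES3 and TBXAS1 were likewise lower without overlap with DAC, by 1.60-fold and 1.57-fold. Reads per DAC library were few, 2 to 5 for PTGIS, 8 to 14 for PTGES3 and 10 to 23 for TBXAS1. AKR1C3 (mean 29.2 against 13.2 untreated) and PTGDS were higher without overlap with DAC. Over all tested genes, groups did not overlap for 30.4% with DAC and 50.7% with ATRA against untreated. PTGDS, a PGD2 synthase gene, had means of 9.34 ± 3.20 untreated, 27.6 ± 3.34 with DAC, 53.8 ± 7.08 with ATRA and 74.8 ± 14.8 with DAC+ATRA. The groups followed the same order as PTGES, with log2 differences from untreated of 1.51, 2.45 and 2.91. PTGES2, a further PGE2 synthase gene, rose by 1.09 ± 0.24 with DAC+ATRA (limma adjusted p = 0.00129), and AKR1C3, a prostaglandin F synthase gene, by 1.52 ± 0.36 (limma adjusted p = 0.00209). Leaving out DAC+ATRA replicate 2 ended the PTGES2 call (limma adjusted p = 0.0116), and leaving out DAC+ATRA replicate 1 or 3 ended the AKR1C3 call (limma adjusted p up to 0.0194).

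ALOX12, the platelet-type 12-lipoxygenase gene, moved furthest among the 8 tested lipoxygenase and leukotriene enzyme genes. Its counts were 1242, 1250 and 899 untreated, 447, 359 and 373 with DAC, 11439, 10471 and 8845 with ATRA, and 6621, 6774 and 6400 with DAC+ATRA. No group overlapped another, and DAC lowered ALOX12 from the untreated level while ATRA raised it. The log2 differences from untreated were -1.51 ± 0.13 with DAC, 3.19 ± 0.13 with ATRA and 2.56 ± 0.13 with DAC+ATRA (limma adjusted p = 2.25e-07, 3.78e-13 and 1.25e-11). COTL1, whose protein binds 5-lipoxygenase, rose by 1.22 with ATRA and 1.58 with DAC+ATRA (limma adjusted p = 4.68e-05 and 2.36e-06). DPEP2, a dipeptidase gene that acts on LTD4, rose by 1.15 and 1.20 (limma adjusted p = 7.23e-05 and 4.57e-05). MGST1 fell by 1.35 with ATRA (limma adjusted p = 0.000356).

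**Figure D4:**
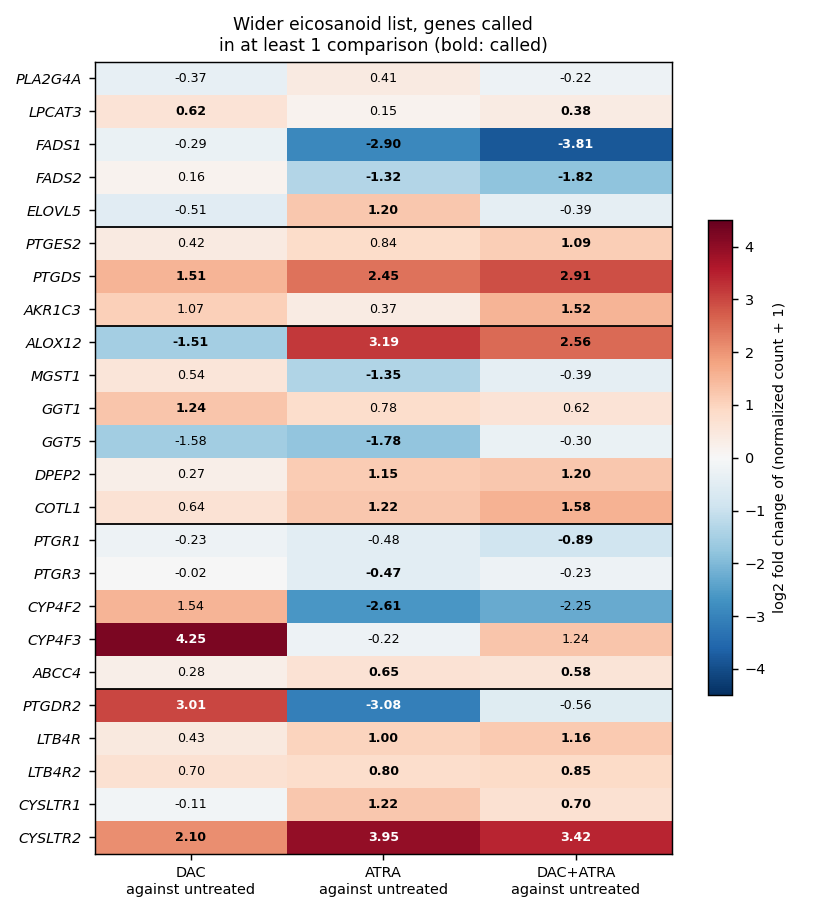
Log2 fold changes of the 24 called genes of the wider list (rows, grouped by role with lines between roles) in 3 comparisons with untreated (columns); bold numbers were called at an adjusted p under 0.01 in limma. ATRA and DAC+ATRA columns share the rises of ALOX12 (3.19 and 2.56) and COTL1 (1.22 and 1.58) and the falls of FADS1 (-2.90 and -3.81).

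Of the eicosanoid receptors besides the EP2 and EP4 genes, 7 of 12 were tested, and 4 were called higher and 1 lower with ATRA (12.1% and 14.0% of all tested genes), and 4 higher with DAC+ATRA (14.5%). CYSLTR1, a receptor gene for LTC4 and LTD4, had means of 187 ± 27.5 untreated, 174 ± 31.8 with DAC, 435 ± 55.1 with ATRA and 304 ± 41.2 with DAC+ATRA. CYSLTR1 rose by 1.22 ± 0.17 with ATRA and by 0.70 ± 0.17 with both drugs (limma adjusted p = 8.12e-06 and 0.00213), so a receptor gene for cysteinyl leukotrienes was higher where the synthase gene LTC4S was lowest. The second of these calls was lost without untreated replicate 3 or DAC+ATRA replicate 1 (limma adjusted p up to 0.0177). LTB4R, the high-affinity LTB4 receptor gene, rose by 1.00 with ATRA and 1.16 with DAC+ATRA (limma adjusted p = 7.01e-05 and 1.38e-05). PTGDR2, the PGD2 receptor gene known as CRTH2 on eosinophils, had means of 9.70 ± 3.86 untreated, 81.8 ± 12.9 with DAC and 6.07 ± 1.84 with DAC+ATRA, and 1 read in all with ATRA. Its group means had the order of those of LTC4S and EPX. From 40 reads untreated and 1 with ATRA, the pooled ratio of untreated over ATRA was 35.6 (exact 95% counting interval 6.03 to 1440).

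Of the inactivation and transport genes, 6 of 8 were tested, and 1 was called with DAC, 3 with ATRA and 2 with DAC+ATRA against untreated (7.97%, 26.0% and 28.9% of all tested genes). CYP4F3, whose enzyme oxidizes LTB4, had means of 7.13 ± 2.38 untreated, 149 ± 19.0 with DAC, 6.52 ± 4.45 with ATRA and 18.4 ± 7.07 with DAC+ATRA. Its log2 difference was 4.25 ± 0.40 with DAC against untreated and -3.01 ± 0.40 in DAC+ATRA against DAC, on the log2(count + 1) scale. CYP4F2, a close copy, held 4 to 13 reads per untreated library and 0 in all 3 ATRA libraries. ABCC4, a transporter gene for prostaglandins, rose by 0.65 with ATRA and 0.58 with DAC+ATRA (limma adjusted p = 0.00042 and 0.00113).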

How the data were processed

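RNA was measured in 12 MOLM-13 libraries, 3 in each of 4 groups named by the labels. Columns headed CTRL were taken as the untreated libraries. The authors removed ribosomal RNA, sequenced stranded libraries, aligned to hg38 with STAR, counted with htseq-count and normalized with DESeq2; tool versions, annotation release and strand setting are not given in the sources used here. The deposited values are a normalized signal per transcript (100502 rows), read counts divided by 1 size factor per library. In each library 100% of values were whole multiples of 1 step (tolerance 0.02), so whole reads were recovered. Symbols and rows were matched to GENCODE release 44 (88.9% of rows matched).

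Rows were summed per symbol. Protein-coding genes with at least 10 normalized counts in at least 3 libraries, 10642 in all, were fitted with limma 3.58.1 (R 4.3.3, eBayes with trend) on log2(normalized count + 1), with 1 coefficient per group, and Benjamini-Hochberg adjustment per comparison. This test was planned for normalized values, and a count test would have been the main one for a table of raw counts. edgeR 4.0.16 and DESeq2 1.42.0 on recovered reads, other scalings, pseudocounts, filters, thresholds and each library left out were alternatives. Scripts were tested on simulated data. The members, the wider list and the markers were chosen with earlier results of these data known. All members are named. The 24 called genes of the wider list are the rows of the plot of log2 fold changes grouped by role. The text names only some of them. Promoter sequences are from RefSeq, GRCh38.p14. PTGR3 was matched through its older symbol ZADH2. Protein sequences were not used here. Coordinates are from GENCODE release 44 on GRCh38, the assembly also called hg38.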

Additional observations from a re-analysis of the deposited data

Results flagged for a closer look

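Of the wider eicosanoid list, 3 genes were called in the interaction test in limma (the DAC effect with ATRA minus that without it), in which 1.60% of all tested genes were called. ALOX12 had an interaction of 0.88 on the log2 scale (adjusted p = 0.00897): DAC lowered it more without ATRA (-1.51) than with it (-0.63). Leaving out any of several single libraries ended this call (untreated 1 or 2, DAC 2, ATRA 2 or 3, and each DAC+ATRA library), with adjusted p up to 0.0396. CYP4F3 had an interaction of -2.79, with a difference of 4.25 under DAC that was smaller in the presence of ATRA, and CYSLTR2, a cysteinyl leukotriene receptor gene, had one of -2.63. These genes reached the count minimum only through groups in which they are high: 0 untreated libraries of either gene had 10 normalized counts, and those of CYSLTR2 held 3, 4 and 2 reads. Their interactions are therefore given as values, with no support drawn from the test.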

How the results depend on the processing

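Leaving out PTGES, 12 of 42 comparisons of members were called in limma; 9 kept their call in all 24 other fits, 3 lost it in at least 1, and 5 more were called in an alternative alone. The counts below include PTGES, which is given without a test. No called value changed sign. For DAC against untreated, the 2 member calls became 1 with a pseudocount of 5, 1 with a 2-fold limit added and 0 when only the groups compared were fitted. With the 2-fold limit, 1 member remained called for DAC+ATRA against untreated and 1 for DAC+ATRA against DAC, and on the wider list 8 for DAC+ATRA against DAC and 2 for DAC+ATRA against ATRA. The member interaction count was 1 in DESeq2 and 1 at an adjusted p under 0.05. On the wider list, DAC against untreated gave 3 with only the groups compared and 12 at an adjusted p under 0.05, DAC+ATRA against ATRA gave 10 at that threshold, and the interaction gave 1 with a pseudocount of 0.1, 0 without a filter, 0 from the highest transcript row and 5 at the looser threshold. Calls over all tested genes moved as well. For DAC against untreated they went from 848 to 371 with only the groups compared and 893 with a pseudocount of 5. For the interaction they went from 170 to 323 in DESeq2 and 159 with a pseudocount of 0.1. They were 144 without a filter and 145 from the highest transcript row. The matching counts at the looser threshold and with the 2-fold limit are not given here. The cause of these shifts was not tested.

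With 1 library left out, member counts ranged from 1 to 3 for DAC against untreated, 4 to 4 for ATRA, 2 to 4 for DAC+ATRA, 3 to 5 for DAC+ATRA against DAC, 4 to 4 for DAC+ATRA against ATRA and 0 to 1 for the interaction. Wider-list counts ranged from 6 to 12 for DAC (12 without DAC replicate 3), 12 to 19 for ATRA, 11 to 16 for DAC+ATRA, 9 to 14 against DAC, 4 to 6 against ATRA and 0 to 4 for the interaction. Calls over all tested genes ranged from 509 to 1385 for DAC, the highest without DAC replicate 3. They ranged from 2130 to 3271 for ATRA and 2362 to 3641 for DAC+ATRA. The other all-gene ranges were 1461 to 2044 against DAC, 819 to 1778 against ATRA and 106 to 262 for the interaction. Pairing was checked on log2 levels with each gene's group mean subtracted, between libraries of different groups. These residuals correlated at -0.263 to 0.114 over 18 pairs of the same number and at -0.165 to 0.246 over 36 pairs of different number. The numbers thus gave no sign of pairing. With the replicate block, the member counts were 2, 4, 3, 4, 4 and 0 and the wider-list counts 7, 14, 13, 12, 6 and 2 in the order above. Over all tested genes the counts with the block were 742, 2572, 2832, 1834, 1141 and 140. Depth limits PTGES in untreated and DAC libraries, PTGDR2 and LTC4S with ATRA, and CYSLTR2 in untreated libraries.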
